A study of Mus musculus with 12 samples.

Results

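The genes of the corticotropin-releasing factor (CRF) system were followed in messenger RNA from the cerebella of 12 mice. These are Crh, which encodes the CRF peptide precursor, Crhbp, which encodes a secreted CRF-binding protein, and Crhr1 and Crhr2, which encode the CRF receptors of type 1 and type 2. The members were taken by gene symbol from the table of raw counts, where 4 of 4 were present among 18394 genes, and 3 of them (not Crh) passed the filter on low counts that left 15467 genes for testing. The tested animals were 6 conditional knockouts (cKO), labelled as deltaalpha6-Cre Crfr1 knock-out, where Crfr1 is the older name of Crhr1, and they were set against 6 wild-type mice (WT). The labels give no age or strain and name no group that carries the Cre driver alone, so receptor loss, the driver and DNA linked to either cannot be told apart. The driver is named after Gabra6, the GABA-A receptor α6 subunit gene of cerebellar granule cells, and Δα6-Cre is known to act in granule cells and other derivatives of the rhombic lip, while other cell types of the same tissue keep their own receptor transcripts.

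CRF is best known as the hypothalamic peptide that starts the stress hormone cascade, but it is also a neuromodulator outside the hypothalamus. In the cerebellum CRF is carried mainly by climbing fibres, whose cell bodies lie in the inferior olive of the brainstem, and by mossy fibres, so its transcript and the peptide itself largely lie in different tissue. Both receptors belong to class B1 of the G protein-coupled receptors and raise cyclic AMP through Gs. CRF and urocortin 1 bind the type 1 receptor, urocortins 2 and 3 prefer the type 2 receptor, and the binding protein sequesters CRF outside cells.

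Library totals were 32316716 to 58710874 counts in cKO and 23803779 to 62104185 in WT, and a single count was worth 0.0171 to 0.0309 CPM in cKO and 0.0161 to 0.0421 CPM in WT. CPM give a gene's count relative to the total of its own library, with that total adjusted by TMM. The markers fitted the tissue label. The summed level of 10 granule cell genes was 5796 to 6227 CPM in cKO and 6139 to 6421 CPM in WT, whereas 15 listed genes of forebrain and brainstem summed to 15.4 to 19.6 CPM in cKO and 14.2 to 16.8 CPM in WT. Across all tested genes, 409 were called at an adjusted p of 0.05, a share of 2.64%, with 1.27% higher and 1.38% lower in cKO.

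Crhr1, the targeted receptor, was abundant in every library and did not differ detectably between the genotypes. The cKO libraries measured 88.7, 98.9, 102.6, 102.7, 104.8 and 95.2 CPM in order of replicate number. The WT libraries measured 100.8, 97.0, 101.6, 91.6, 93.5 and 101.2 CPM. All 6 WT libraries lay inside the range of the cKO libraries. Of the cKO libraries, 3 lay above all WT libraries and 1, replicate 1, lay below them all. Mean levels were 98.8 ± 6.00 CPM in cKO and 97.6 ± 4.31 CPM in WT (SD, n = 6 each). The fitted difference was 1.27% with a 95% interval of −4.16% to 6.997% (edgeR, p = 0.889 after adjustment over all genes), and the exact two-sided permutation test gave p = 0.727. With 2868 to 5765 counts in cKO and 2395 to 6282 in WT the value was not limited by depth: the interval ends at 4.16% below WT for the total over the gene.

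That total is a sum over the gene. Crhr1 (ENSMUSG00000018634.10, chr11:104132855-104175523, plus strand, mm10) has 13 annotated exons, 2460 exonic bases and no overlapping gene in GENCODE release M21. Reads from exons that the recombination leaves in place, and reads from cells the driver does not reach, count as much as any others, so the total does not check the knockout, and the exons removed are not stated in the labels. In bulk tissue, fewer cells of a type and less RNA per cell cannot be told apart. Gabra6, the driver's namesake, was 583 to 669 CPM in cKO and 710.0 to 871 CPM in WT, with no overlap, and was 23.3% lower in cKO (edgeR adjusted p = 1.45e-05; 2.09% of tested genes had groups that did not overlap). Other markers moved with genotype as well. Of 10 granule cell markers, 5 fell (Gabra6, Reln, Grm4, Pax6 and Zic1) and 1 rose (Etv1). The summed level of 8 interneuron markers was 579 to 667 CPM in cKO and 673 to 704 CPM in WT, with no overlap, and 1 of them was called, lower in cKO. Of 5 microglial markers 2 rose, Cx3cr1 and Csf1r. Their part in the Gabra6 difference was not tested. Of the nearest tested neighbours of Crhr1, Arf2 on the left had a log2 fold change of −0.02 (adjusted p = 0.808) and Mapt, the tau gene 55.9 kb to the right, rose by a log2 fold change of 0.14 (adjusted p = 0.00544).

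Within the knockout libraries the Crhr1 level ran opposite to the list of forebrain and brainstem markers. The library with the lowest Crhr1, cKO replicate 1 at 88.7 CPM, had the highest sum of the forebrain and brainstem markers, 19.6 CPM, against 15.4 to 17.0 CPM in the other 5 cKO libraries. Th and Neurod6 led that sum, at means of 6.46 and 6.17 CPM in cKO. The correlation of log2 levels was −0.93 in cKO (n = 6) and −0.33 in WT (n = 6), in cKO the largest in size of 9 marker lists, a description over libraries that share tissue and depth. For a list of tectum and thalamus genes, described with Crhbp, it was −0.21 in cKO and −0.44 in WT. A forebrain and brainstem score, the mean log2 level of those markers and not their sum, was also used as a covariate. With that score the log2 fold change of Crhr1 was 0.11 (SE 0.04, edgeR adjusted p = 0.178), against 0.02 (SE 0.04) without it. With the tectum and thalamus sum as a covariate instead, the log2 fold change was 0.04 (SE 0.04, edgeR adjusted p = 0.791). Crhr1 stayed uncalled with either covariate. The part of dissection in these values was not tested.

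**Figure D1:**
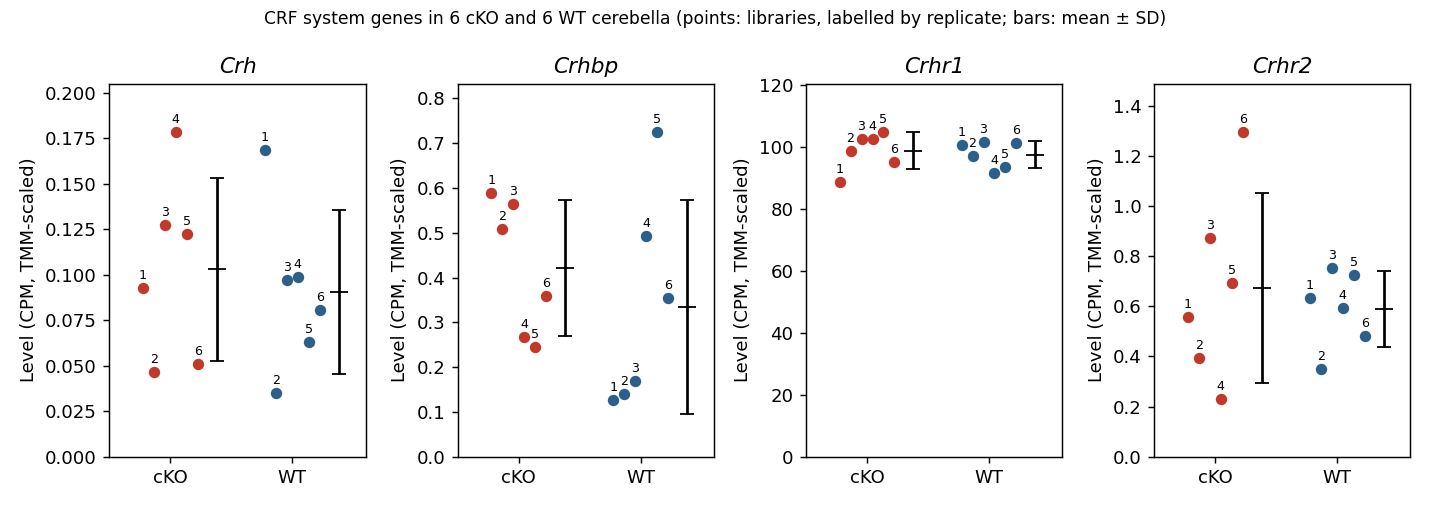
Levels of Crh, Crhbp, Crhr1 and Crhr2 (CPM, linear axes from 0) in each of 6 cKO and 6 WT libraries, with the mean and SD beside each group and replicate numbers above the points. The groups overlap for all 4 genes; Crhr1 spans 88.7 to 104.8 CPM, while the other 3 stay below 1.3 CPM and scatter by up to 5.73-fold within a group.

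The 4 members differed far more among themselves than between genotypes. Per kilobase of exon, Crhr1 stood at 40.2 ± 2.44 CPM per kb in cKO and 39.7 ± 1.75 in WT (SD, n = 6 each here and for the other members). Crhbp followed at 0.234 ± 0.084 CPM per kb in cKO and 0.186 ± 0.133 in WT. Crhr2 was at 0.132 ± 0.074 in cKO and 0.115 ± 0.030 in WT, and Crh was lowest at 0.078 ± 0.038 in cKO and 0.069 ± 0.034 in WT. Among 17639 genes with an annotated length, 94.0% had a lower level per kb than Crhr1, against 19.6% for Crhbp, 15.7% for Crhr2 and 12.7% for Crh. The gap under Crhr1 was wide in every library: its level per kb was 110 to 313 times that of Crhbp in cKO and 94.4 to 584 times in WT. The order below Crhr1 was not firm. Crhbp exceeded Crhr2 in 5 of 6 cKO and 4 of 6 WT libraries, Crhr2 exceeded Crh in 5 of 6 in each genotype, and with the longest transcript as the length of Crhr2, which has 9 annotated transcripts, its level was 0.231 ± 0.129 CPM per kb in cKO and 0.201 ± 0.052 in WT, level with Crhbp.

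Among the receptors of its class, Crhr1 had the highest level per kb of exon. Of 14 class B1 peptide receptor genes with counts in the table, Crhr1 ranked 1 and Crhr2 ranked 10 by level per kb in WT. The next in rank was Adcyap1r1, the receptor for the peptide PACAP, at 24.2 ± 1.003 CPM per kb in cKO and 22.8 ± 0.790 in WT (SD, n = 6 each), and Crhr1 exceeded it 1.46- to 1.86-fold in the cKO libraries and 1.58- to 1.92-fold in the WT libraries. Per kb, Crhr1 therefore lay above Adcyap1r1 in all 12 libraries. In CPM, which are not divided by length, the order of their means was the reverse. Adcyap1r1 was at 160 ± 6.63 CPM in cKO and 150 ± 5.21 CPM in WT, against 98.8 and 97.6 CPM for Crhr1. The order of these 2 genes thus rests on the exon length used, and no other length was tried for Adcyap1r1. The receptor genes Sctr, Calcr, Glp1r and Glp2r lay below Crhr2 and, at 0 to 13 counts a library, did not pass the filter.

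**Figure D2:**
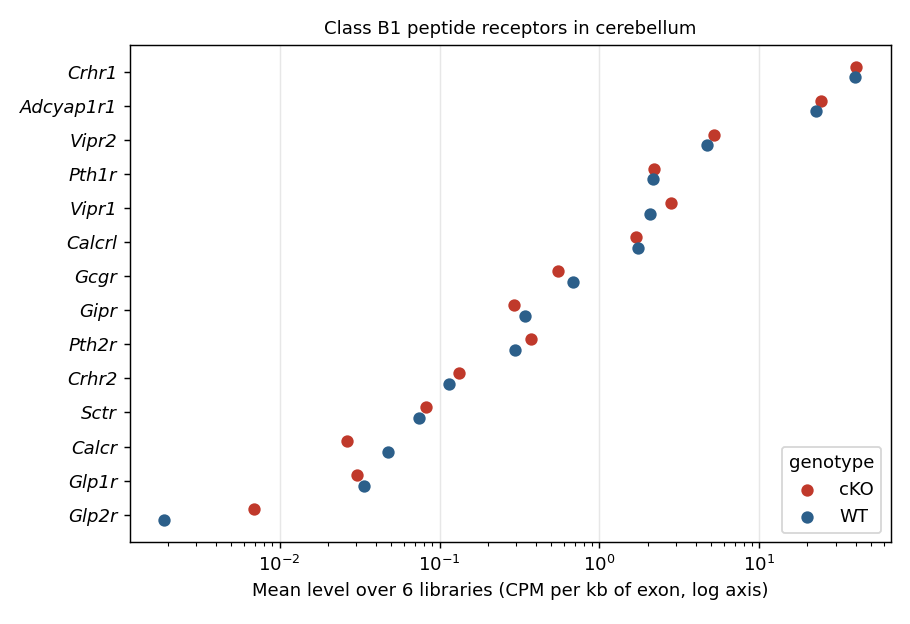
Mean level of 14 class B1 peptide receptor genes (CPM per kb of exon, log axis), cKO above WT for each gene, each point a mean over 6 libraries without error bars. Crhr1 is at the top near 40 CPM per kb in both genotypes, and Crhr2 lies in rank 10 at 0.132 in cKO and 0.115 in WT.

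The levels per kb of the 2 receptor genes differ 153- to 922-fold in the cKO libraries and 268- to 578-fold in the WT libraries. The 2 genes also differ in the sequence ahead of the RefSeq start taken for each. Crhr2 has 9 annotated transcripts, and which starts were used in these libraries was not examined. Whether the sequences have a part in the levels was not tested. The 250 bases before each RefSeq start (GRCm38.p6, written in the direction of transcription, with TATAAA in capitals) are chr11:104132531-104132780 on the plus strand for Crhr1 and chr6:55133017-55133266 on the minus strand for Crhr2.
Crhr1: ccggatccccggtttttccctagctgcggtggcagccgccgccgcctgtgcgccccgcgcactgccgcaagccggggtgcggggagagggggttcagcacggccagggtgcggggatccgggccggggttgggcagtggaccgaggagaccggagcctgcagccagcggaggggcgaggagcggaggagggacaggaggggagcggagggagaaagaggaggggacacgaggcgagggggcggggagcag
Crhr2: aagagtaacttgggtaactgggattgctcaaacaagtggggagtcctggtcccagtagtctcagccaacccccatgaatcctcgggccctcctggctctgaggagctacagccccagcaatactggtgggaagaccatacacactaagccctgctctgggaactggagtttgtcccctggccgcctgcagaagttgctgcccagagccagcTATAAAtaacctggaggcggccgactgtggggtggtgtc
The Crhr1 sequence is 74.8% G or C and holds 25 CG dinucleotides, more than 89.7% of the 27025 RefSeq promoters of that length, whose median is 6. The Crhr2 sequence is 57.6% G or C with 4 CG dinucleotides, and TATAAA begins 39 bases before the start. TATAAA lies on the gene's strand in 8.12% of those promoters and on either strand in 13.0%. In the Crhr1 and Crhbp windows it was on neither strand, and the Crhbp window had 9 CG dinucleotides and 47.2% G or C. TGACGTCA, the palindromic cyclic AMP response element, was in none of the 3 windows and in 1.62% of all. These are matches of letters and not measured sites.

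Crh, the ligand gene, was at the edge of detection in both genotypes. The cKO libraries held 3, 2, 7, 10, 6 and 3 counts, or 0.046 to 0.178 CPM. The WT libraries held 4, 1, 4, 3, 2 and 5 counts, or 0.035 to 0.168 CPM. Every library had at least 1 count, and the groups overlapped over nearly their whole range. Sums over the 6 libraries were 31 counts in cKO (exact 95% Poisson interval 21.1 to 44.0) and 19 in WT (11.4 to 29.7), intervals that cover counting error only and do not allow for the deeper cKO libraries. The mean level was 0.103 ± 0.050 CPM in cKO and 0.090 ± 0.045 CPM in WT (SD, n = 6 each), and the exact permutation test of log2 levels gave p = 0.664. Crh (ENSMUSG00000049796.4, chr3:19693401-19695396, minus strand) was too rare for the main fit. Fitted without the filter its 95% interval ran from 0.645-fold to 2.21-fold (edgeR adjusted p = 0.870), so changes between those ends were not resolved.

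Ucn2, which encodes the type 2 receptor ligand urocortin 2, was more abundant than Crh in all 12 libraries. It held 22 to 44 counts in cKO and 15 to 35 in WT, 0.631 ± 0.105 CPM in cKO and 0.561 ± 0.063 CPM in WT (SD, n = 6 each). Its level per kb was 5.03 to 16.6 times that of Crh in cKO and 4.57 to 18.3 times in WT. The difference between genotypes, a log2 fold change of 0.17, had an SE of 0.16 and an edgeR adjusted p of 0.707. It was 0.09 without cKO replicate 4, 0.10 with the choroid plexus sum as a covariate and 0.44 in counts thinned to the shallowest library (adjusted p = 0.899, 0.879 and 0.411), uncalled each time. Ucn and Ucn3, the genes of urocortins 1 and 3, were not analysed here.

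Crhbp, the binding protein gene, was low and uneven, most of all in WT. The cKO libraries measured 0.588, 0.509, 0.563, 0.267, 0.245 and 0.358 CPM, from 12 to 31 counts each. The WT libraries measured 0.126, 0.140, 0.170, 0.494, 0.724 and 0.355 CPM, from 3 to 23 counts each. WT replicates 1, 2 and 3 lay below all 6 cKO libraries, whereas WT replicate 5 was the highest of all 12. The variance of the counts within a group was 2.63 times in cKO and 5.21 times in WT what counting alone would give (chi-square per degree of freedom). Means were 0.422 ± 0.151 CPM in cKO and 0.335 ± 0.239 CPM in WT (SD, n = 6 each). The fitted log2 fold change was 0.27 with a 95% interval of −0.46 to 1.01, or 0.725-fold to 2.02-fold. The genotypes were not distinguishable (edgeR adjusted p = 0.797, exact permutation p = 0.286), and changes between those ends were not resolved.

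The libraries with high Crhbp (ENSMUSG00000021680.8, chr13:95431371-95444924, minus strand) were those with more transcripts of a list of tectum and thalamus genes that was drawn up with the Crhbp values known. The 3 genes of at least 1 CPM whose log2 levels over the 12 libraries were most like it, out of 13821 candidates, were Shox2 (r = 0.93), Lhx9 (r = 0.93) and B230209E15Rik (r = 0.93). Shox2 and Lhx9 are transcription factor genes of the thalamus and midbrain. Shox2 was 1.87 to 6.16 CPM in cKO and 1.35 to 5.61 CPM in WT, and it too was highest in WT at replicate 5 and lowest there at replicate 1. The list of 8 genes of the tectum and thalamus, drawn up after this was seen, summed to 61.7, 64.4, 68.6, 45.3, 54.1 and 52.4 CPM in the cKO libraries and to 44.4, 42.0, 51.8, 53.2, 63.3 and 51.8 CPM in the WT libraries. Its log2 sum and Crhbp had a correlation of 0.85 in cKO and 0.89 in WT (n = 6 each), a description that shares 2 genes with the likeness ranking above. The forebrain and brainstem markers did not follow Crhbp in both genotypes, with a correlation of 0.67 in cKO, 0.09 in WT and 0.41 over the 12 libraries. The granule cell markers ran opposite to Crhbp, at −0.855 in cKO and −0.71 in WT. The 4 highest libraries for the list, cKO replicates 1, 2 and 3 and WT replicate 5, were also the 4 highest for Crhbp. With the list as a covariate the log2 fold change of Crhbp was −0.15 (SE 0.26, edgeR adjusted p = 0.879), and without those 4 libraries it was 0.11 (SE 0.38, adjusted p = 0.955). With the forebrain and brainstem score as a covariate it was −0.56, so its sign changed with either covariate but not without the 4 libraries. The list was drawn up with the Crhbp values known, and the 4 libraries left out were also the highest for Crhbp. Neither of those fits is therefore an independent check. Whether Crhbp reads come from such tissue was not tested.

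Crhr2, the second receptor gene, was likewise rare, with 1 cKO library above the rest. The cKO libraries measured 0.557, 0.393, 0.872, 0.232, 0.694 and 1.29 CPM, from 13 to 76 counts each. The WT libraries measured 0.631, 0.349, 0.753, 0.592, 0.724 and 0.483 CPM, from 10 to 31 counts each. All 6 WT libraries lay inside the range of the cKO libraries. Means were 0.674 ± 0.378 CPM in cKO and 0.589 ± 0.152 CPM in WT (SD, n = 6 each). The log2 fold change of 0.23 had a 95% interval of −0.44 to 0.90 (edgeR adjusted p = 0.811; exact permutation p = 0.903). Without cKO replicate 6 it was −0.09 (SE 0.28, adjusted p = 0.919), so the direction rested on that library. Changes between 0.739-fold and 1.87-fold, the ends of the interval over all 12 libraries, were not resolved.

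Crhr2 (ENSMUSG00000003476.16, chr6:55090049-55133016, minus strand) followed the choroid plexus content of the libraries in both genotypes. The choroid plexus is the secretory epithelium of the ventricles, part of which lies against the cerebellum and can be taken with it. The 3 genes most like Crhr2 over the 12 libraries were 5930403L14Rik (r = 0.97), 1500015O10Rik (r = 0.88) and Htr2c, the serotonin 2C receptor gene known for its high level in choroid plexus (r = 0.88). Htr2c was 5.15 to 19.2 CPM in cKO and 6.21 to 15.1 CPM in WT, and in cKO both it and Crhr2 were highest in replicate 6 and lowest in replicate 4. The summed level of 8 choroid plexus markers, led by Ttr, the transthyretin gene, was 165, 179, 404, 155, 468 and 1043 CPM in the cKO libraries and 434, 216, 563, 656, 568 and 284 CPM in the WT libraries. Its log2 value and that of Crhr2 had a correlation of 0.89 in cKO, 0.89 in WT (n = 6 each) and 0.84 over the 12 libraries. Over the 12 libraries it was −0.04 for the forebrain and brainstem markers. For vascular smooth muscle and meningeal markers it was 0.01 (0.24 in cKO and −0.50 in WT). The tectum and thalamus list gave 0.38 over the 12 libraries, 0.32 in cKO and 0.65 in WT. Oligodendrocyte markers gave 0.34, 0.63 and −0.32 in the same order. Interneuron and microglial markers gave −0.74 and −0.695 in WT, against 0.22 and 0.04 in cKO. Of the 8 choroid plexus markers edgeR called 0 and gave 0 an unadjusted p under 0.05, and their median log2 fold change was −0.09. With the choroid plexus sum as a covariate the log2 fold change of Crhr2 was 0.33 with its SE narrowed to 0.18 (edgeR adjusted p = 0.497), against an SE of 0.32 without it. The source of the Crhr2 reads was not tested.

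**Figure D3:**
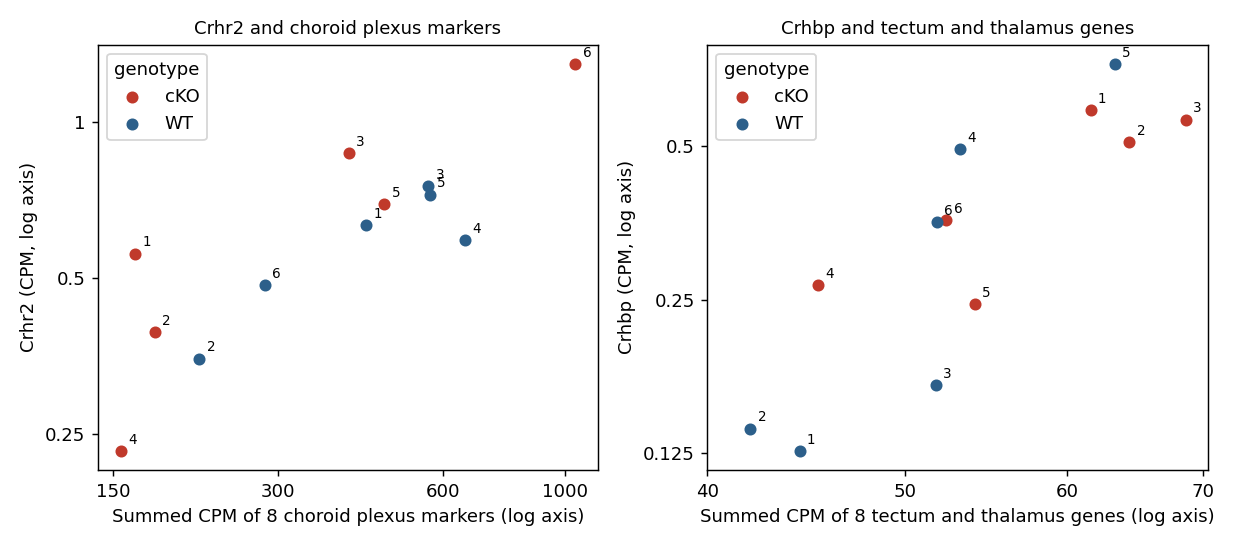
Left, Crhr2 (CPM) against the summed CPM of 8 choroid plexus markers; right, Crhbp (CPM) against the summed CPM of 8 tectum and thalamus genes; all axes are logarithmic, and each point is a library of cKO or WT with its replicate number. Libraries of both genotypes lie along the same rising trend in each panel, from cKO replicate 4 to cKO replicate 6 on the left and from WT replicates 1 and 2 to cKO replicates 1, 2 and 3 and WT replicate 5 on the right.

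The members did not vary together. Over the 12 libraries the correlations of log2 levels between pairs of members ran from −0.50 (Crhr1 and Crhbp) to 0.42 (Crh and Crhr1), and only that of Crhr1 and Crhbp was beyond 0.5 in size with 1 sign in both genotypes, at −0.57 in cKO and −0.69 in WT. These values describe 12 libraries, and for the rare members they include counting noise. Crhr1 was most like U2af2 (r = 0.91), Alg8 (r = 0.91) and Usp19 (r = 0.89), and Crh, on 1 to 10 counts, was most like Ubl5 (r = 0.83), Zfp747 (r = 0.83) and Btbd3 (r = 0.82). All are maxima over 13820 or 13821 candidates.

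Among pathway and related genes around the CRF system, 5 were called. In 9 lists of processing enzymes, transducers, effectors, regulators, related receptors, other peptides and glucocorticoid genes these were 5 of 89 tested genes, 2 higher and 3 lower in cKO, a share of 5.62% beside 2.64% of all tested genes. An unadjusted p under 0.05 was found for 24 of the 89, or 27.0%, beside 14.2% of all tested genes, and the median log2 fold change of the 89 was 0.01 beside 0.00 over all genes. The lists were chosen with earlier results of these data known, so these shares do not measure an enrichment. Grk5, a kinase that phosphorylates activated receptors, was 17.3 ± 0.84 CPM in cKO and 25.3 ± 2.40 CPM in WT and fell by 31.7%. Vipr1, a receptor for the peptides VIP and PACAP and a relative of Crhr1, was 16.1 ± 1.76 CPM in cKO and 11.99 ± 1.34 CPM in WT and rose 1.34-fold. Adcy1, a calcium-stimulated adenylyl cyclase, was 2731 ± 112 CPM in cKO and 2502 ± 62.9 CPM in WT and rose 1.09-fold. Pcsk2, a convertase that cuts peptide precursors, was 137 ± 7.23 CPM in cKO and 152.5 ± 3.32 CPM in WT and fell by 10.3%. Penk, the enkephalin precursor gene, was 106 ± 8.69 CPM in cKO and 126 ± 6.77 CPM in WT and fell by 16.0% (SD, n = 6 each for these 5 genes; edgeR adjusted p = 5.85e-06 for Grk5, 0.00427 for Vipr1, 0.00975 for Adcy1, 0.00685 for Pcsk2 and 0.00487 for Penk). With the forebrain and brainstem score as a covariate, Vipr1, Pcsk2 and Penk were no longer called, while their fold changes stayed near those without it and their SEs were wider. Vipr1 then had a log2 fold change of 0.41 (SE 0.10, adjusted p = 0.0547), against 0.42 (SE 0.08) without the covariate. Pcsk2 had −0.14 (SE 0.04, adjusted p = 0.127), against −0.16 (SE 0.03), and Penk −0.20 (SE 0.06, adjusted p = 0.137), against −0.25 (SE 0.05). Without the 4 libraries highest in the tectum and thalamus list, Penk was at −0.21 (SE 0.05, adjusted p = 0.0509). The granule cell, interneuron and microglial markers given beside Gabra6 moved with genotype as well, and their part in these 5 differences was not tested.

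By role, each list held at most 1 gene called by edgeR. Among 10 genes of peptide processing and granules, Pcsk2 was the called one and 4 had an unadjusted p under 0.05, and among 10 adenylyl cyclases Adcy1 was called and 5 had one. Of 12 Gs and Gq transduction genes 0 were called by edgeR and by limma-voom, 2 had an unadjusted p under 0.05, and DESeq2 called 1, Gnal, a Gs-family α subunit (log2 fold change −0.09 and adjusted p = 0.0593 in edgeR). Of 12 protein kinase A and Epac genes 0 were called by edgeR and by limma-voom, 1 had an unadjusted p under 0.05, and DESeq2 called that 1, the regulatory subunit gene Prkar1b (log2 fold change 0.06 and adjusted p = 0.146 in edgeR). Of 10 CREB genes and targets 0 were called by edgeR, DESeq2 or limma-voom and 1 had an unadjusted p under 0.05, the transcriptional regulator gene Crem, with a log2 fold change of −0.11 (edgeR adjusted p = 0.301). Of 7 glucocorticoid genes 0 were called by any of the 3 tools and 2 had an unadjusted p under 0.05, the smallest that of the kinase gene Sgk1, with a log2 fold change of −0.09 (edgeR adjusted p = 0.280). Of 10 desensitisation and scaffold genes edgeR called Grk5 and 2 had an unadjusted p under 0.05. DESeq2 called Grk5 and also Adrbk2, another receptor kinase gene, which had a log2 fold change of −0.08 and an adjusted p of 0.0937 in edgeR. Of 8 other class B1 receptors edgeR called Vipr1 and 4 had an unadjusted p under 0.05, and of 10 other peptide genes it called Penk and 3 had one.

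Of the 3 CRF system members that were tested, edgeR and limma-voom called 0, and 0 had an unadjusted p under 0.05 in edgeR. DESeq2 called neither Crhr1 (adjusted p = 0.912) nor Crhr2 (adjusted p = 0.867) and gave no adjusted p for Crhbp, whose log2 fold change there was 0.31 (SE 0.38). In the authors' deposited table the adjusted p-values were 0.917 for Crhr1, 0.833 for Crhbp and 0.874 for Crhr2, with none given for Crh.

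**Figure D4:**
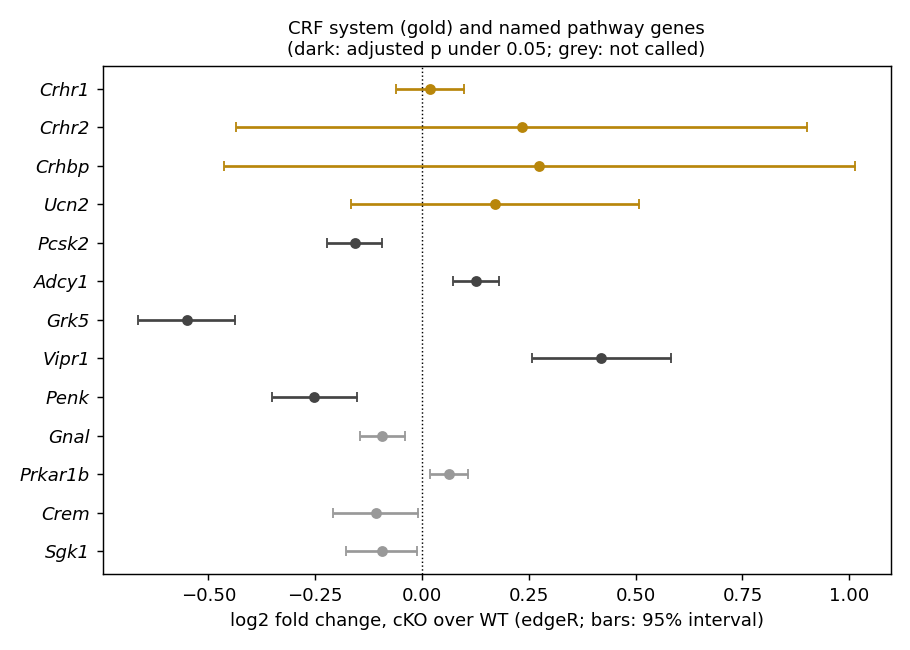
log2 fold change of cKO over WT with its 95% interval (edgeR) for the tested CRF system genes (gold) and the named pathway genes (dark where called at an adjusted p of 0.05, grey where not). The interval of Crhr1, −0.06 to 0.10, is the narrowest of the gold ones, and all 4 gold intervals include 0.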

How the data were processed

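Cerebellar messenger RNA of 12 mice was sequenced with a stranded mRNA kit on an Illumina instrument, all libraries being multiplexed together, per the labels' protocols. The authors deposited raw counts per gene symbol, and the submitters' processing notes list STAR, DESeq2 and mm10 with no version. How reads were counted, with which strand setting and annotation, is not given in the sources used here. A second deposited table, the authors' DESeq2 comparison, holds a mean normalized signal per gene, a log2 fold change with its SE, a Wald score and p-values, per the file headers. Its fold changes appear shrunken towards 0, so only its adjusted p-values are quoted.

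Samples were grouped by the genotype in the labels, and replicate numbers only name libraries in order of deposit. The counts were fitted with edgeR 4.0.16 in R 4.3.3, using filterByExpr, TMM scaling and the quasi-likelihood test over all 15467 tested genes with Benjamini-Hochberg adjustment at 0.05. Standard errors and 95% intervals come from the test statistic. Exact permutation tests used log2 CPM with a prior count of 2, and the smallest p they can give with 6 libraries per group is 0.00216. The chi-square per degree of freedom between 2 libraries of a group was 2.68 or more, above sampling noise. That value alone does not show that libraries come from separate animals. Each library was taken as a sample because each has its own label. Levels per kb used the union of exons in GENCODE M21 (mm10), matched by symbol for 17639 genes (95.9% of the table). Promoter sequences are RefSeq's (GRCm38.p6). The gene test was tested on simulated counts.

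The members and gene lists were chosen with earlier results of these data known. Named genes were the members, urocortins, Gabra6, every called gene of a pathway list or else its smallest p, and the 3 genes most like each member by Pearson r among those of at least 1 CPM. Mapt and Arf2, the nearest tested genes to Crhr1, Adrbk2 and the named cell type markers were added after their values were seen. DESeq2 1.42.0 and limma 3.58.1 (voom) were alternatives, beside other scalings, no filter, counts thinned to the shallowest library, covariates and leaving out each library.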

Additional observations from a re-analysis of the deposited data

How the results depend on the processing

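Crhr1 stayed uncalled in all 22 alternatives, with log2 fold changes of 0.00 to 0.05 when each library was left out in turn and 0.01 to 0.11 otherwise. Gabra6 kept its call and direction in all 22. Crhbp, Crhr2 and Crh changed sign in alternatives, never with a call. Crhbp was at −0.56 with the forebrain and brainstem score as a covariate and at −0.15 with the tectum and thalamus sum, an alternative chosen after seeing the data, against 0.27; leaving out each library gave 0.12 to 0.60, the highest without WT replicate 5. It did not pass the filter in thinned counts and had no adjusted p in DESeq2, so neither is among its alternatives. Crhr2 ranged from −0.089 to 0.43 with each library left out, the lowest without cKO replicate 6. Crh, by its difference in mean log2 CPM of 0.12, ranged from −0.019 to 0.26 with each library left out (below 0 without cKO replicate 4 or WT replicate 2) and was −0.080 in thinned counts. The cause was not tested for any of these. The number of genes called, 409, ranged from 272 (without WT replicate 3) to 459 with a library left out, was 577 with DESeq2 and was 190 with the forebrain and brainstem score. Of the pathway genes 5 were called, against 8 with DESeq2, 3 with that score and 5 to 7 with a library left out. Depth limited Crh, at 1 to 10 counts a library. For Crhbp, and for Crhr2 in cKO, the scatter between libraries was above counting error (chi-square per degree of freedom 2.63 in cKO and 5.21 in WT for Crhbp, 11.3 in cKO and 1.39 in WT for Crhr2). No paired analysis was possible because the labels give the groups no shared replicate numbers.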
